A study of Mus musculus with 8 samples.

Results

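The nucleolar ribosome biogenesis and RNA polymerase I genes are a set of 52 genes that was chosen by gene symbol from a list. The choice was made with earlier results of these data known. All 52 were found among the 25428 rows of the expression table, which holds 1 row per gene. They comprise 6 genes of RNA polymerase I and its initiation factors, 3 of the box C/D and 4 of the box H/ACA small nucleolar ribonucleoproteins (snoRNPs), 15 of small subunit and 18 of large subunit assembly, and 6 of other abundant nucleolar proteins. The data come from primary liver sinusoidal endothelial cells (LSECs) that were captured on magnetic beads through the endothelial surface protein CD146 and lysed for RNA directly afterwards. Ctnnb1OE-EC mice carry the transgene Clec4g-iCre, a recombinase under a promoter that is active in LSECs, and 1 allele of Ctnnb1 whose exon 3 is flanked by recombination sites, so that a stabilized β-catenin is made. The same driver recombines in heart endothelium, so the liver is not the only organ affected. Ctrl mice are labelled as controls and are named wild type by the study. Which of the 2 alleles they carried is not given in the sources used here. All mice were female, 2 months old and of the strain C57BL/6J. Each of 4 Ctnnb1OE-EC and 4 Ctrl samples was 1 Affymetrix array of cells pooled from the livers of 2 mice, and a value below is a log2 value after the background correction and quantile normalization of the study. The number of arrays limits the precision. In a principal component analysis of all rows, Ctnnb1OE-EC replicates 3 and 4 lay apart on the first component (30.6% of the variance), and Ctnnb1OE-EC replicate 1 and Ctrl replicate 3 lay at opposite ends of the second (22.5%). The row of Ctnnb1 does not resolve the removed exon and did not pass the test (log2 fold change 0.34, SE 0.13, adjusted p = 0.361 from limma), whereas Axin2, a feedback gene of canonical Wnt signaling, rose by 2.14 on the log2 scale (adjusted p = 0.00136).

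Ribosomes are built in the nucleolus, where RNA polymerase I transcribes the ribosomal DNA into a long precursor RNA. Box C/D snoRNPs guide the methylation of this RNA and box H/ACA snoRNPs guide the change of uridine to pseudouridine, while large sets of assembly factors, helicases and nucleases fold and cut it into the RNAs of the small and the large subunit. Many of these genes are known targets of the transcription factor Myc, itself a target of canonical Wnt signaling, and their expression is commonly tied to growth and proliferation.

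The mean of 47 of the 52 genes was higher in Ctnnb1OE-EC than in Ctrl LSECs and that of the other 5 was lower, so that 90.4% were higher, against 46.4% of all rows. The 1 gene that passed the test over all rows was Fbl, the methyltransferase of the box C/D snoRNP, at 0.75 on the log2 scale (SE 0.11, adjusted p = 0.0188 from limma). Of all rows, 0.92% passed in either direction. The median log2 fold change of the 52 genes was 0.20, a 1.15-fold difference, with quartiles of 0.08 and 0.29, against a median of -0.01 and quartiles of -0.13 and 0.10 over all rows. In the cumulative plot of log2 fold changes, the genes are displaced to the right of all rows over most of their range, while the steps stay small. In RNA of a bulk sample, a change in the number of cells of a type and a change of RNA per cell cannot be told apart.

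**Figure D1:**
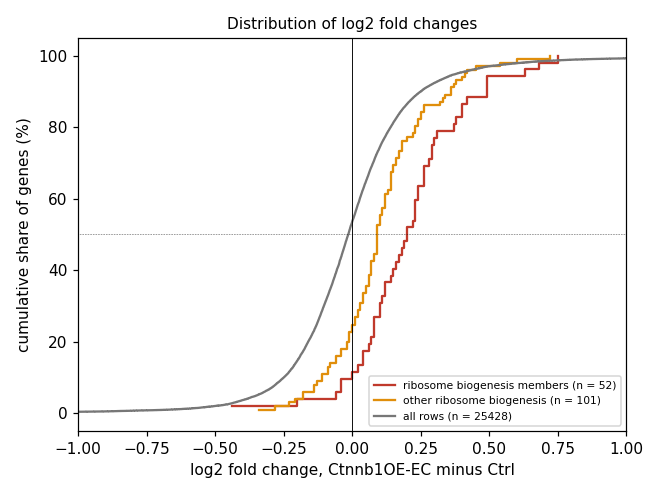
Cumulative share of genes (y axis, %) against the log2 fold change of Ctnnb1OE-EC minus Ctrl (x axis, drawn from -1 to 1) for the 52 genes, for 101 other ribosome biogenesis genes and for all 25428 rows. The curve of the 52 genes crosses 50% at 0.20, that of the other ribosome biogenesis genes at 0.09 and that of all rows at -0.01.

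At an unadjusted p under 0.05 from limma, 13 of the 52 genes were higher, with 5.49% of all rows on that side, and 1 was lower, with 6.02% of all rows on that side. In 11 of the 52, every Ctnnb1OE-EC value lay above every Ctrl value, which was so for 3.55% of all rows. In 0 of the 52 did every Ctnnb1OE-EC value lie below every Ctrl value, which was so for 4.04% of all rows. The 11 separated genes were Fbl, Polr1a, Nop58, Pes1, Wdr43, Noc2l, Nhp2, Npm3, Polr1e, Nolc1 and Mybbp1a. For each the two-sided exact permutation test gave p = 0.0286, the smallest that 4 samples against 4 allow. Separated groups always give this p, so it restates the separation and adds nothing to it. All 52 genes had a Ctrl mean above the array median of 4.20. A filter on low values would therefore remove none of them. Among the rows with a Ctrl mean at or above that median, 44.0% had a higher mean in Ctnnb1OE-EC and the median log2 fold change was -0.03.

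**Figure D2:**
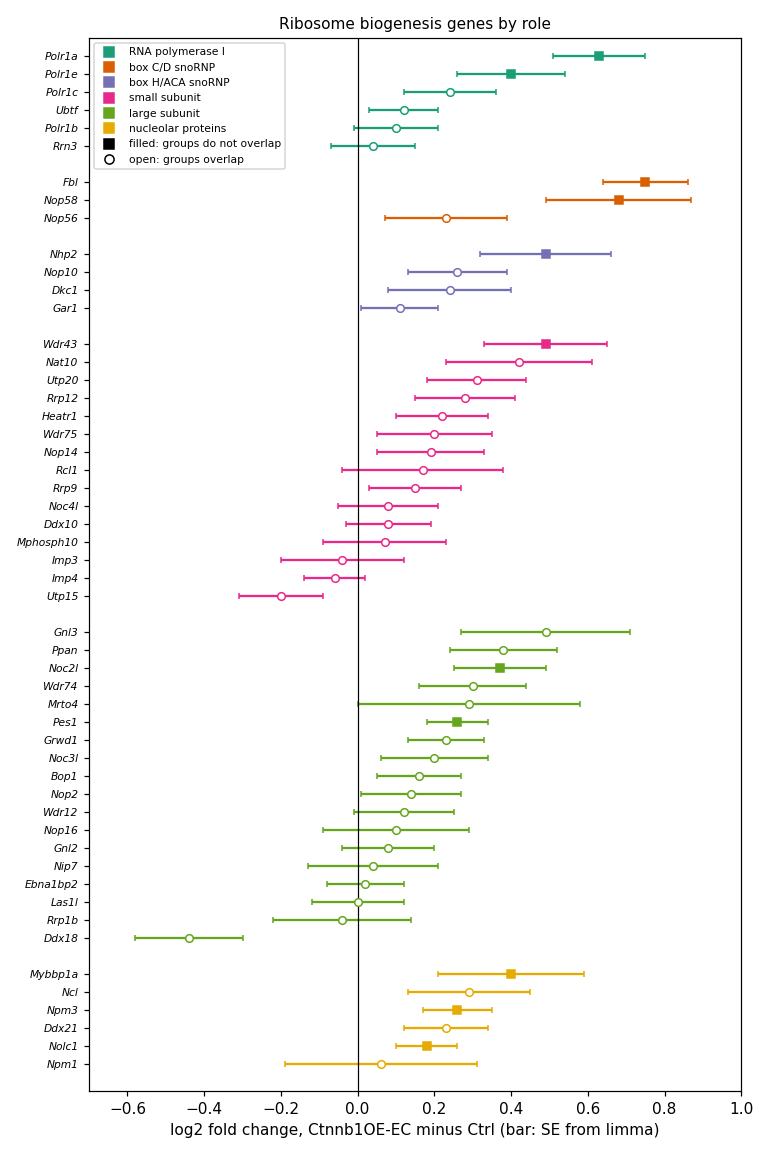
Log2 fold change of Ctnnb1OE-EC minus Ctrl (x axis) for each of the 52 genes, ordered by role from top to bottom, with bars for the standard error from limma. Filled squares mark the 11 genes whose groups do not overlap, open circles mark the others, and Ddx18 at -0.44 is the gene farthest to the left while Fbl at 0.75 is farthest to the right.

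Myc, the transcription factor that binds the E-box CACGTG with its partner Max, had log2 values of 7.79, 7.38, 8.71 and 8.71 in Ctnnb1OE-EC replicates 1 to 4 and 5.96, 6.04, 5.82 and 5.91 in Ctrl replicates 1 to 4 (log2 fold change 2.22, SE 0.28, adjusted p = 0.00919 from limma). The start sites of the genes were therefore read for this string of letters. RefSeq promoter windows on assembly GRCm38.p6, from 250 bases before to 50 bases after an annotated start, were matched to 47 of the 52 genes by symbol, and Fbl, Rrp12, Bop1, Gnl2 and Npm1 had none there. These 47 genes have 56 windows, since some have several starts. CACGTG, which reads the same on both strands, was found in 8 of the 56 windows (14.3%), in Pes1, Wdr43, Utp20, Grwd1, Mybbp1a, Nop2, Imp4 and Rrn3, against 7.15% of all 32851 windows. The 8 genes with the string had a median log2 fold change of 0.25 and the 39 without it 0.20. Groups that did not overlap, with Ctnnb1OE-EC higher, were seen in 3 of the 8 and in 7 of the 39, against 3.55% of all rows. With so few genes, a difference between those with and without the string was not tested. The strings CTTTGAT and CTTTGAA, bound by the partners of β-catenin of the TCF family and searched on both strands, were in 3 of the 56 windows (5.36%), those of Ncl, Wdr75 and Noc4l, against 8.65% of all windows, and their letters cannot overlap with those of CACGTG. In the windows of measured genes alone, the shares were 7.96% for CACGTG and 7.87% for the strings of the TCF family. A match is a string of letters and no measurement of binding.

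The windows of the 3 genes that hold CACGTG and whose groups did not overlap are shown 5′ to 3′ with CACGTG in capitals, because they place the string relative to the start. They lie on GRCm38.p6, plus strand, at chr11:3963725-3964024 for Pes1, chr17:71615965-71616264 for Wdr43 and chr11:72441077-72441376 for Mybbp1a. Counted from 1 at the 5′ end of the window, the string starts at base 253 in Pes1, 268 in Wdr43 and 291 in Mybbp1a, which is past the annotated start in each.
Pes1: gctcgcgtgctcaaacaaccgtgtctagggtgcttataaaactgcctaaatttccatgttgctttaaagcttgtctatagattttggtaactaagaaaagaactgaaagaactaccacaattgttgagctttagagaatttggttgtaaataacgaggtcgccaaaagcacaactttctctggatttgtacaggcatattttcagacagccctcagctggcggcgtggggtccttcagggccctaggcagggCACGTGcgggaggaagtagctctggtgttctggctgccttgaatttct
Wdr43: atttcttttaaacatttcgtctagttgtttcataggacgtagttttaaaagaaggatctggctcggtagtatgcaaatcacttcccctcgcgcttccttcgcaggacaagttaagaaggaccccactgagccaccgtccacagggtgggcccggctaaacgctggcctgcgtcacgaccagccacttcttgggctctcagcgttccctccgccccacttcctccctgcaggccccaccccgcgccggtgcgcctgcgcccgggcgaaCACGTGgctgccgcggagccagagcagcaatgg
Mybbp1a: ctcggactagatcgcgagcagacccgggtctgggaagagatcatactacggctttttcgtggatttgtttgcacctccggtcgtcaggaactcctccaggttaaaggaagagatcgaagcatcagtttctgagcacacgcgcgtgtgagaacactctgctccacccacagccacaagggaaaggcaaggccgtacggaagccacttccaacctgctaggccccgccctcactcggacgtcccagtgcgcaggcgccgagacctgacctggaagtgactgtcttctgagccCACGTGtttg

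All 6 genes of RNA polymerase I had a higher mean in Ctnnb1OE-EC, with a median log2 fold change of 0.18 and a range of 0.04 to 0.63. Polr1a, the largest catalytic subunit, had log2 values of 6.88, 6.83, 6.90 and 7.20 in Ctnnb1OE-EC and 6.23, 6.57, 6.23 and 6.25 in Ctrl replicates 1 to 4. The groups were 0.27 apart, with Ctnnb1OE-EC replicate 4 the highest and Ctrl replicate 2 nearest to the other group. The log2 fold change was 0.63 (SE 0.12), a 1.55-fold difference, and the adjusted p of 0.0514 from limma lay just past the threshold. It lay under the threshold where fewer rows were tested (0.0467 and 0.0335 with rows under the 25th or 50th percentile of row means left out) and with a trended and robust variance prior (0.0422). In the other 14 of 17 alternative settings it lay past the threshold. Among these were all reruns of limma with 1 pool left out (0.053 to 0.167) and that without Ctnnb1OE-EC replicates 3 and 4 (0.246).

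Polr1e, a subunit that belongs to RNA polymerase I alone, had 5.28, 5.0, 4.99 and 5.43 in Ctnnb1OE-EC and 4.86, 4.77, 4.51 and 4.98 in Ctrl replicates 1 to 4 (log2 fold change 0.40, SE 0.14, adjusted p = 0.307 from limma). The gap between the groups was 0.017, so Ctnnb1OE-EC replicates 2 and 3 and Ctrl replicate 4 were nearly level. Polr1c, shared with RNA polymerase III, had 7.38, 7.56, 7.93 and 7.68 in Ctnnb1OE-EC and 7.44, 7.30, 7.51 and 7.35 in Ctrl (log2 fold change 0.24, SE 0.12, adjusted p = 0.523). Its groups overlapped, with Ctnnb1OE-EC replicate 1 below 2 of the Ctrl pools, and without Ctnnb1OE-EC replicate 3 the log2 fold change was 0.14. Ubtf, which binds along the ribosomal DNA, Polr1b, the second largest subunit, and Rrn3, the initiation factor that joins the polymerase to its promoter, differed by 0.12, 0.10 and 0.04 on the log2 scale (adjusted p = 0.662, 0.794 and 0.940).

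The box C/D snoRNP proteins had the highest median log2 fold change of the 6 roles, 0.68 over 3 genes. Fbl had 7.27, 7.23, 7.29 and 7.06 in Ctnnb1OE-EC and 6.32, 6.56, 6.31 and 6.67 in Ctrl replicates 1 to 4. The groups were 0.39 apart and no pool lay far from its group, with a mean of 7.21 ± 0.11 in Ctnnb1OE-EC and 6.47 ± 0.18 in Ctrl (SD, n = 4 each), so Fbl rose 1.68-fold. The call in limma did not hold in every rerun with pools left out. Fbl did not pass without Ctnnb1OE-EC replicate 1 (adjusted p = 0.0592) or 3 (0.0716), or without both replicates 3 and 4 (0.122). It also did not pass without Ctrl replicate 1 (0.0701), 2 (0.0530) or 3 (0.0509). With 1 pool left out, fewer of all rows were called as well, 92 to 223 against 234 with all pools. By the methods' test, rerun here on the deposited values without the study's software, the adjusted p was 0.0862, and this rerun says nothing of the study's own call. The log2 fold change of Fbl was 0.69 to 0.81 under all 17 alternative settings.

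Nop58, which holds the guide RNA together with Fbl, had 7.80, 7.71, 7.98 and 8.26 in Ctnnb1OE-EC and 7.58, 7.43, 6.73 and 7.28 in Ctrl replicates 1 to 4. The groups were 0.13 apart, and Ctrl replicate 3 lay well below the other Ctrl pools. The log2 fold change was 0.68 (SE 0.19, adjusted p = 0.198 from limma). Nop56, its close relative in the same particle, had 7.73, 7.54, 7.84 and 8.20 in Ctnnb1OE-EC and 7.71, 7.69, 7.25 and 7.73 in Ctrl (log2 fold change 0.23, SE 0.16, adjusted p = 0.663). Apart from Ctnnb1OE-EC replicate 4 on the high side and Ctrl replicate 3 on the low side, the pools of both groups lay between 7.54 and 7.84, and the log2 fold change was 0.11 without Ctnnb1OE-EC replicate 4 and 0.12 without Ctrl replicate 3.

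**Figure D3:**
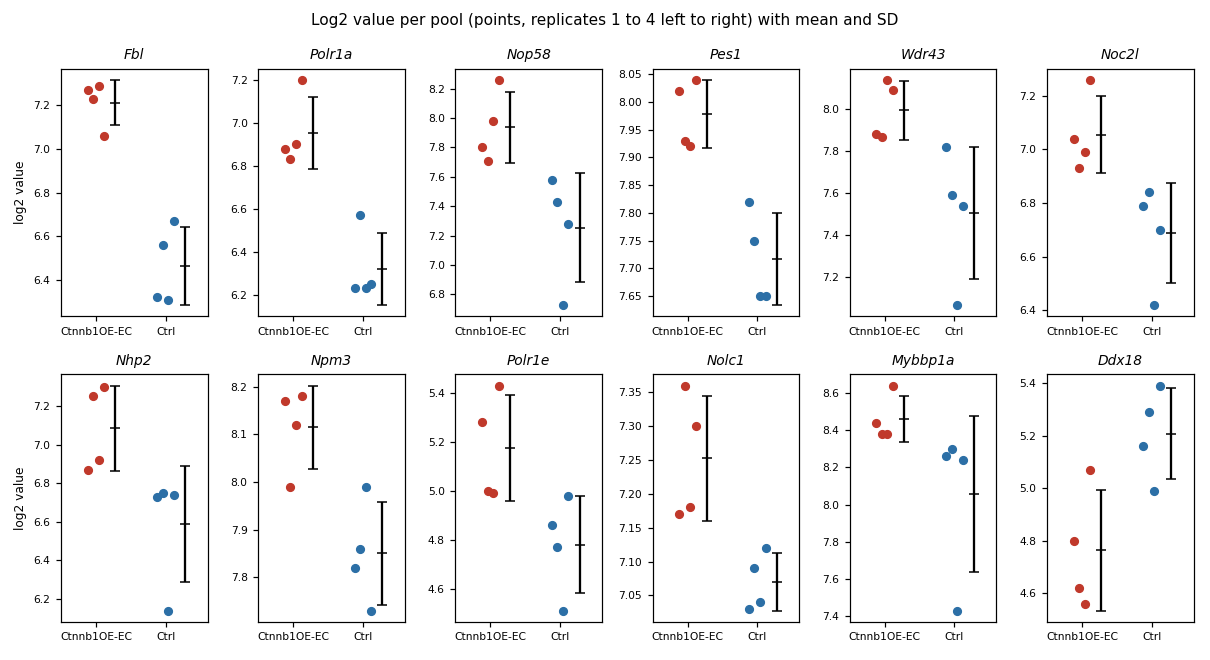
Log2 value (y axis, each panel with its own range) in 4 pools of Ctnnb1OE-EC (red, left) and 4 of Ctrl (blue, right), with the mean and SD beside the points, for the 11 genes whose groups do not overlap and for Ddx18. The gap between the groups is 0.39 for Fbl and 0.017 for Polr1e, and Ctrl replicate 3 lies far below the other Ctrl pools for Nop58, Wdr43, Nhp2 and Mybbp1a.

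The 4 genes of the box H/ACA snoRNP were all higher by their means, with a median of 0.25 on the log2 scale. Nhp2, a core protein of this particle and of telomerase, had 6.87, 7.25, 6.92 and 7.30 in Ctnnb1OE-EC and 6.73, 6.75, 6.14 and 6.74 in Ctrl replicates 1 to 4 (log2 fold change 0.49, SE 0.17, adjusted p = 0.290 from limma). The groups were 0.12 apart, and 3 of the Ctrl pools were nearly equal while Ctrl replicate 3 was low. Nop10, a small core protein, had 9.53, 9.50, 9.72 and 9.45 in Ctnnb1OE-EC and 9.31, 9.41, 8.97 and 9.47 in Ctrl (log2 fold change 0.26, SE 0.13, adjusted p = 0.499). Dkc1, the pseudouridine synthase, had 6.55, 6.17, 6.86 and 6.93 in Ctnnb1OE-EC and 6.42, 6.45, 6.25 and 6.43 in Ctrl (log2 fold change 0.24, SE 0.16, adjusted p = 0.642). Both overlapped between the groups, and the lowest Dkc1 value of all pools was that of Ctnnb1OE-EC replicate 2. Without Ctrl replicate 3 the log2 fold change of Nop10 was 0.15. That of Dkc1 was 0.39 without Ctnnb1OE-EC replicate 2, 0.14 without replicate 4 and -0.02 without replicates 3 and 4. Gar1, the remaining core protein, had 0.11 (SE 0.10, adjusted p = 0.769).

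Small subunit assembly was represented by 15 genes, of which 12 were higher and 3 lower by their means (median 0.17 on the log2 scale). Of these, 2 reached an unadjusted p under 0.05 from limma on the higher side, against 5.49% of all rows. Wdr43, a part of the complex that binds the nascent precursor RNA, had 7.88, 7.87, 8.14 and 8.09 in Ctnnb1OE-EC and 7.82, 7.59, 7.07 and 7.54 in Ctrl replicates 1 to 4 (log2 fold change 0.49, SE 0.16, adjusted p = 0.262 from limma). The groups were 0.044 apart, with Ctrl replicate 1 close to the Ctnnb1OE-EC pools. Utp20, a large scaffold of the small subunit processome, had 6.54, 6.39, 6.57 and 6.63 in Ctnnb1OE-EC and 6.41, 6.36, 5.87 and 6.23 in Ctrl (log2 fold change 0.31, SE 0.13, adjusted p = 0.393), and only Ctnnb1OE-EC replicate 2 lay below a Ctrl value. Nat10, which acetylates the RNA of the small subunit, had 6.44, 6.63, 6.31 and 6.80 in Ctnnb1OE-EC and 6.18, 6.29, 5.56 and 6.46 in Ctrl (log2 fold change 0.42, SE 0.19, adjusted p = 0.464). Its groups overlapped through Ctrl replicate 4, and without Ctrl replicate 3 the log2 fold change was 0.23, while that of Utp20 was 0.20.

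The other genes of small subunit assembly with a higher mean differed by 0.07 to 0.28 on the log2 scale. At the upper end were Rrp12, a factor of pre-ribosome export (0.28, adjusted p = 0.486 from limma), and Heatr1, which also acts in transcription by RNA polymerase I (0.22, adjusted p = 0.550). Wdr75, Nop14, Rcl1 and Rrp9, the last a protein of the U3 snoRNP, had 0.20, 0.19, 0.17 and 0.15. Noc4l, the helicase Ddx10 and Mphosph10 had 0.08, 0.08 and 0.07. Utp15, of the same early complex as Wdr43, had 6.88, 6.47, 6.75 and 6.74 in Ctnnb1OE-EC and 7.04, 6.85, 6.76 and 6.98 in Ctrl replicates 1 to 4 (log2 fold change -0.20, SE 0.11, adjusted p = 0.575), with Ctnnb1OE-EC replicate 1 inside the range of Ctrl. Imp4, which binds the U3 RNA together with Imp3 and Mphosph10, had 8.05, 8.14, 7.96 and 8.15 in Ctnnb1OE-EC and 8.11, 8.17, 8.11 and 8.16 in Ctrl (log2 fold change -0.06, SE 0.08, adjusted p = 0.847). Imp3 had -0.04 (SE 0.16, adjusted p = 0.954), and its groups overlapped. For Imp4, Ctnnb1OE-EC replicates 1 and 3 lay below every Ctrl pool and the other two within the Ctrl range.

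Large subunit assembly was represented by 18 genes, 16 of them higher and 2 lower by their means (median 0.15 on the log2 scale). An unadjusted p under 0.05 from limma was reached by 5 on the higher side, against 5.49% of all rows. On the lower side it was reached by Ddx18 alone, against 6.02% of all rows. Pes1, of the PeBoW complex of Pes1, Bop1 and Wdr12 that is needed for the maturation of the large subunit, had 8.02, 7.93, 7.92 and 8.04 in Ctnnb1OE-EC and 7.82, 7.75, 7.65 and 7.65 in Ctrl replicates 1 to 4 (log2 fold change 0.26, SE 0.08, adjusted p = 0.261 from limma). The difference was small, and so was the spread within both groups, which were 0.10 apart. Bop1 and Wdr12 had log2 fold changes of 0.16 (SE 0.11) and 0.12 (SE 0.13), and their groups overlapped. Noc2l, which acts with Noc3l in nuclear transport of the pre-ribosome, had 7.04, 6.93, 6.99 and 7.26 in Ctnnb1OE-EC and 6.79, 6.84, 6.42 and 6.70 in Ctrl (log2 fold change 0.37, SE 0.12, adjusted p = 0.270). The groups were 0.089 apart, and Noc3l had 0.20 with overlapping groups.

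Ddx18, an RNA helicase of the large subunit, went the other way, with 4.80, 4.62, 4.56 and 5.07 in Ctnnb1OE-EC and 5.16, 5.29, 4.99 and 5.39 in Ctrl replicates 1 to 4. Only Ctnnb1OE-EC replicate 4 overlapped with Ctrl, through Ctrl replicate 3. The log2 fold change was -0.44 (SE 0.14, adjusted p = 0.238 from limma), the lowest of the 52 genes, and it was between -0.55 and -0.38 under all 17 alternative settings. Rrp1b had 5.11, 5.09, 4.79 and 5.24 in Ctnnb1OE-EC and 5.31, 5.47, 4.77 and 4.85 in Ctrl (log2 fold change -0.04, SE 0.18, adjusted p = 0.958), and the Ctnnb1OE-EC pools lay within the wider range of the Ctrl pools. Las1l, which belongs to the nuclease complex that cuts the spacer before the large subunit RNA, had 0.00 (SE 0.12).

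Among the other genes of large subunit assembly, Gnl3, the nucleolar GTPase nucleostemin, had the largest difference, 0.49 on the log2 scale (SE 0.22, adjusted p = 0.427 from limma). Ppan, Wdr74, Mrto4 and Grwd1 had 0.38, 0.30, 0.29 and 0.23, and Nop2, a methyltransferase of the large subunit RNA, had 0.14. Mrto4 varied most among the Ctnnb1OE-EC pools (SD 0.58 in Ctnnb1OE-EC and 0.40 in Ctrl), with 6.97 in Ctnnb1OE-EC replicate 1 and 5.31 in Ctrl replicate 3 at its ends. Nop16, Gnl2, Nip7 and Ebna1bp2 had 0.10 or less.

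The 6 genes of abundant nucleolar proteins were all higher by their means (median 0.25 on the log2 scale). Npm3, a chaperone of the nucleoplasmin family, had 8.17, 7.99, 8.12 and 8.18 in Ctnnb1OE-EC and 7.82, 7.86, 7.99 and 7.73 in Ctrl replicates 1 to 4 (log2 fold change 0.26, SE 0.09, adjusted p = 0.306 from limma). Its groups were separated by 0.00098 alone, between Ctnnb1OE-EC replicate 2 and Ctrl replicate 3. Nolc1, a chaperone of snoRNPs, had 7.17, 7.36, 7.18 and 7.30 in Ctnnb1OE-EC and 7.03, 7.09, 7.04 and 7.12 in Ctrl (log2 fold change 0.18, SE 0.08, adjusted p = 0.462), with a narrow Ctrl group and a gap of 0.046. Mybbp1a, which binds Myb and represses transcription by RNA polymerase I, had 8.44, 8.38, 8.38 and 8.64 in Ctnnb1OE-EC and 8.26, 8.30, 7.43 and 8.24 in Ctrl (log2 fold change 0.40, SE 0.19, adjusted p = 0.480).

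For Mybbp1a, Ctrl replicate 3 lay far below the other Ctrl pools, and the log2 fold change was 0.19 without it. Ncl, or nucleolin, and Ddx21, a nucleolar RNA helicase, differed by 0.29 and 0.23 on the log2 scale (adjusted p = 0.539 and 0.490 from limma). Npm1, or nucleophosmin, had 4.82, 5.08, 6.05 and 5.74 in Ctnnb1OE-EC and 5.58, 5.42, 5.27 and 5.19 in Ctrl replicates 1 to 4 (log2 fold change 0.06, SE 0.25, adjusted p = 0.961). Both ends of the range were Ctnnb1OE-EC pools. Npm1 has processed copies in the mouse genome, and whether its probes also bound their transcripts was not tested.

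The differences were not even over the pools. Relative to the Ctrl mean of each gene, the mean of the 52 genes was 0.22, 0.09, 0.17 and 0.35 in Ctnnb1OE-EC replicates 1 to 4 and 0.09, 0.09, -0.20 and 0.02 in Ctrl replicates 1 to 4. The 2 groups thus touched, at Ctnnb1OE-EC replicate 2 and Ctrl replicates 1 and 2, and the pools at the ends were Ctnnb1OE-EC replicate 4 and Ctrl replicate 3. Ctnnb1OE-EC replicate 4 held the highest value of all 8 pools in 25 of the 52 genes (48.1%, against 13.5% of all rows), and Ctrl replicate 3 held the lowest in 30 (57.7%, against 15.4% of all rows). Of the 52 genes, 44, 31, 40 and 47 lay above the Ctrl mean in Ctnnb1OE-EC replicates 1 to 4. These are 84.6%, 59.6%, 76.9% and 90.4%, against 44.3%, 48.5%, 46.3% and 51.3% of all rows in the same pools.

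**Figure D4:**
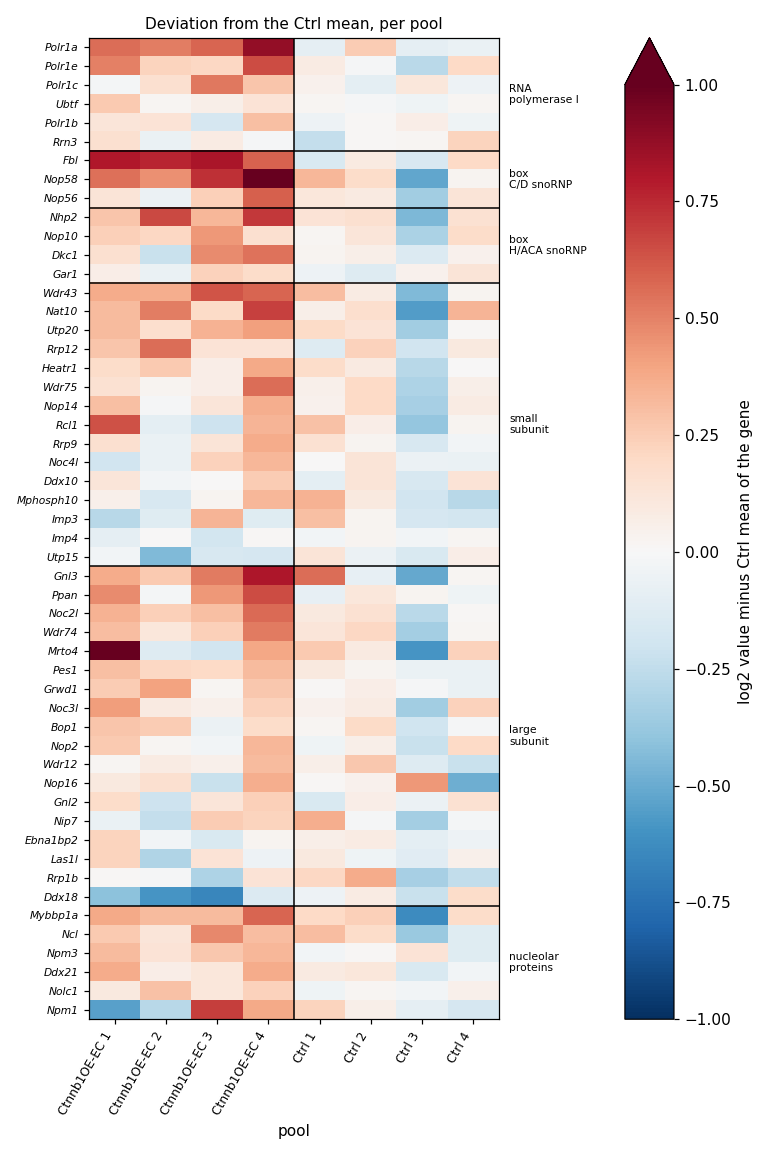
Log2 value minus the Ctrl mean of the gene (colour, red above and blue below, cut at 1) for the 52 genes (rows, by role) in 4 Ctnnb1OE-EC pools (left) and 4 Ctrl pools (right). The column of Ctnnb1OE-EC replicate 4 is red in most rows, with a mean of 0.35, and that of Ctrl replicate 3 is blue in most rows, with a mean of -0.20.

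By role, the pools of both groups were separated for RNA polymerase I, with means of 0.26, 0.16, 0.22 and 0.38 in Ctnnb1OE-EC and -0.04, 0.03, -0.03 and 0.05 in Ctrl replicates 1 to 4, a gap of 0.118 in which no 1 pool stood out. They were also separated for the box C/D proteins, with 0.50, 0.39, 0.60 and 0.73 in Ctnnb1OE-EC and 0.10, 0.12, -0.34 and 0.12 in Ctrl, and, by 0.018, for the box H/ACA proteins. For small subunit assembly the means were 0.15, 0.06, 0.12 and 0.30 in Ctnnb1OE-EC and 0.12, 0.11, -0.25 and 0.02 in Ctrl, and for large subunit assembly 0.24, 0.02, 0.04 and 0.30 in Ctnnb1OE-EC and 0.09, 0.10, -0.19 and -0.01 in Ctrl. In both of these the groups overlapped, with the low end set by Ctrl replicate 3. The nucleolar proteins had 0.15, 0.11, 0.33 and 0.36 in Ctnnb1OE-EC and 0.12, 0.10, -0.19 and -0.04 in Ctrl, and they overlapped by 0.017.

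**Figure D5:**
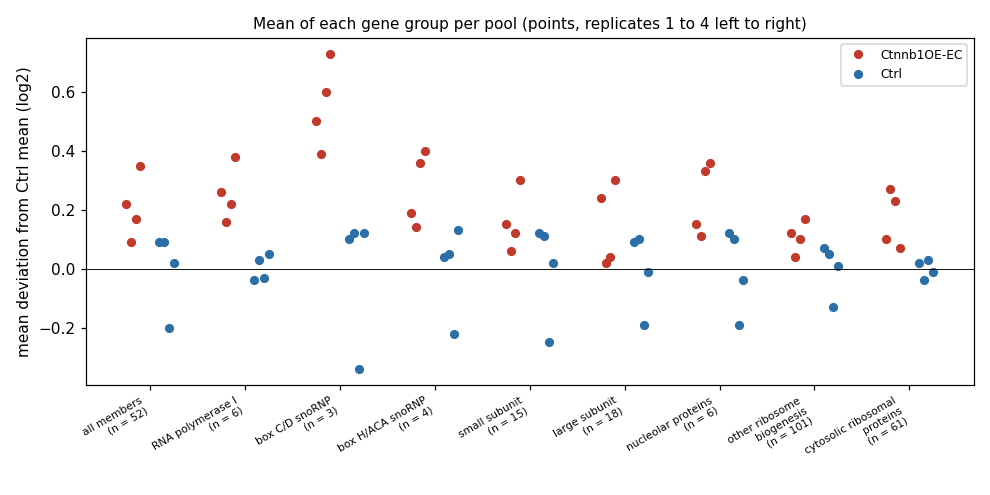
Mean deviation from the Ctrl mean (y axis, log2) per pool for the 52 genes, for each of the 6 roles, for 101 other ribosome biogenesis genes and for 61 cytosolic ribosomal proteins, with Ctnnb1OE-EC in red left of Ctrl in blue. The points of the groups are apart for RNA polymerase I, the box C/D and box H/ACA proteins and the ribosomal proteins, and Ctrl replicate 3 is the lowest point in all sets but RNA polymerase I and the ribosomal proteins.

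Leaving out the pools at the ends changed the counts. Without Ctnnb1OE-EC replicate 4, 8 of the 52 genes reached an unadjusted p under 0.05 on the higher side, against 5.90% of all rows, and without Ctnnb1OE-EC replicates 3 and 4 there were 5, against 4.97% of all rows, with 40 genes of higher mean and a median log2 fold change of 0.17. Without Ctrl replicate 3, 9 genes were higher at that p, against 5.15% of all rows, 44 had a higher mean, and the median was 0.12.

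Several genes of other cell types and of the cell cycle differed between the same pools. Relative to Ctrl, the mean of 23 genes of the G2 and M phases was 0.64, 0.65, 0.64 and -0.03 in Ctnnb1OE-EC replicates 1 to 4 and -0.53, 0.17, 0.02 and 0.33 in Ctrl replicates 1 to 4. Each of the 23 was higher by its mean and 0 were called by limma, against 0.92% of all rows in either direction. An unadjusted p under 0.05 in limma was reached by 11, against 5.49% of all rows on the higher side. Ctnnb1OE-EC replicate 4, the pool with the highest mean of the ribosome biogenesis genes, was thus the lowest Ctnnb1OE-EC pool in the G2 and M phase genes. Of 8 genes of neutrophils and monocytes, 8 had a higher mean and 0 passed (means 0.28, -0.14, 1.16 and 1.30 in Ctnnb1OE-EC and -0.12, 0.75, -0.61 and -0.02 in Ctrl). Of 8 genes of the adrenal cortex, 8 had a higher mean and 0 passed, with -0.22, -0.16, 2.56 and 1.78 in Ctnnb1OE-EC and at most 0.14 in Ctrl, and 7 of the 8 had a Ctrl mean below the array median, Mc2r being below it in every pool.

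Hepatocyte and pancreatic acinar genes were lowest among the Ctnnb1OE-EC pools in replicates 3 and 4. The mean of 9 hepatocyte genes was 1.44, -0.06, -1.96 and -1.08 in Ctnnb1OE-EC and 0.67, -0.97, -0.73 and 1.03 in Ctrl, and that of 9 acinar genes was 1.63, 0.27, -2.37 and -2.01 in Ctnnb1OE-EC and 2.23, -2.40, -1.28 and 1.45 in Ctrl. In both lists 9 of 9 had a lower mean and 0 passed. Smooth muscle genes were high in the same Ctnnb1OE-EC pools and in Ctrl replicate 2, with means of -0.34, 0.44, 1.17 and 1.38 in Ctnnb1OE-EC and -0.70, 1.30, -0.62 and 0.02 in Ctrl. Of the 10, 9 had a higher mean and 1 passed, against 0.92% of all rows in either direction. In Ctrl replicate 3 the means of 8 Kupffer cell genes and 8 stellate cell genes were -1.0 and -1.25, the lowest of the Ctrl pools. The mean log2 value of 10 LSEC markers was 10.97 to 11.21 in Ctnnb1OE-EC and 11.48 to 11.62 in Ctrl. Of these markers, 9 were lower and 2 of them passed the test, against 0.92% of all rows in either direction. The mean log2 value of 8 markers of all endothelial cells was 11.47 to 11.61 in Ctnnb1OE-EC and 11.42 to 11.63 in Ctrl. All 18 lay above the array median in every pool, as did all 9 hepatocyte and all 8 Kupffer cell genes, so this does not show that the pools held LSECs alone. The mean log2 value was 6.93 to 10.34 in Ctnnb1OE-EC and 7.92 to 9.93 in Ctrl for the hepatocyte genes, and 7.48 to 9.39 in Ctnnb1OE-EC and 7.66 to 9.48 in Ctrl for the Kupffer cell genes. The part of the G2 and M phase genes and of other cells in the differences of the ribosome biogenesis genes was not tested.

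Of 103 further genes of ribosome biogenesis from a list written from general knowledge, 101 were measured, 77 of them higher and 24 lower by their means (median 0.09 on the log2 scale). None passed over all rows (0 in limma and 0 by the rerun of the methods' test), against 0.92% and 0.0787% of all rows. An unadjusted p under 0.05 in limma was reached by 14 on the higher side, against 5.49% of all rows. On the lower side it was reached by 1, against 6.02% of all rows. In 12 the groups did not overlap with Ctnnb1OE-EC higher, against 3.55% of all rows. Of 5 assembly factors of snoRNPs, all had a higher mean (median 0.24) and the pools were separated, with means of 0.32, 0.32, 0.24 and 0.27 in Ctnnb1OE-EC and -0.02, -0.05, 0.04 and 0.03 in Ctrl replicates 1 to 4. Among them Ruvbl1, an ATPase that helps to build box C/D snoRNPs, had 7.56, 7.61, 7.44 and 7.65 in Ctnnb1OE-EC and 7.13, 7.21, 7.15 and 7.31 in Ctrl (log2 fold change 0.37, SE 0.09, adjusted p = 0.126 from limma). Its partner Ruvbl2 had 7.74, 7.64, 7.75 and 7.72 in Ctnnb1OE-EC and 7.38, 7.50, 7.58 and 7.44 in Ctrl (0.24, SE 0.08, adjusted p = 0.309). In both genes the groups were narrow and did not overlap. Shq1, the assembly factor of box H/ACA snoRNPs, had 0.60 (SE 0.18, adjusted p = 0.222) with a Ctrl mean of 4.10 below the array median, so its fold is uncertain.

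Of 39 further genes of the large subunit, 31 were higher by their means (median 0.12 on the log2 scale). Rpf2, a factor that brings the 5S RNA into the large subunit, had 5.89, 5.82, 6.42 and 6.04 in Ctnnb1OE-EC and 5.72, 5.51, 4.70 and 5.34 in Ctrl replicates 1 to 4 (log2 fold change 0.72, SE 0.22, adjusted p = 0.231 from limma), with Ctrl replicate 3 the lowest. Rrp15 and the methyltransferase Ftsj3 had 0.54 and 0.41 (adjusted p = 0.201 and 0.263), and in all 3 genes the groups did not overlap. Of 34 further genes of the small subunit, 26 had a higher mean (median 0.08), Wdr46 with 0.40 (adjusted p = 0.204) and Utp14a with 0.24 (adjusted p = 0.373) among them. Of 14 genes of the RNA exosome, 11 had a higher mean (median 0.08).

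The 9 further genes of RNA polymerase I and its factors were mixed, with 4 higher and 5 lower means and a median log2 fold change of -0.04. Taf1c, a subunit of the promoter selectivity factor SL1, had 5.60, 5.71, 5.38 and 5.59 in Ctnnb1OE-EC and 5.84, 5.83, 5.86 and 5.68 in Ctrl replicates 1 to 4 (log2 fold change -0.23, SE 0.10, adjusted p = 0.399 from limma), with an overlap of 1 pool in each group. Of the cytosolic ribosomal proteins, the products that meet the ribosomal RNA in the nucleolus, 61 of 79 were measured. Of these, 48 had a higher mean and 0 passed the test (median log2 fold change 0.19). On the higher side, 12 reached an unadjusted p under 0.05 in limma, against 5.49% of all rows. In 28 of these 61 the Ctrl mean lay below the array median. Their mean was 0.10, 0.27, 0.23 and 0.07 in Ctnnb1OE-EC and 0.02, -0.04, 0.03 and -0.01 in Ctrl, so the groups were 0.035 apart, and the ribosomal proteins were higher in Ctnnb1OE-EC replicates 2 and 3, while the 52 ribosome biogenesis genes were higher in replicates 1 and 4.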

How the data were processed

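RNA of LSECs from Ctnnb1OE-EC and Ctrl mice was measured on 8 MoGene-2_0-st arrays, each from cells pooled from 2 mice. Probes were assigned to Entrez genes by a Custom CDF (version 22), and the authors deposited log2 values after RMA background correction (its version is not given in the sources used here) and quantile normalization. The sorted values of any 2 arrays differed by at most 0.00183, and 0 pairs of arrays were identical. All 8 columns were mapped to samples by their accession.

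Of 25428 rows, 25237 were named by Entrez identifier through a RefSeq gene table (GRCm38.p6), 32 through the platform annotation alone and 159 not at all. Promoter windows came from RefSeq on the same assembly. The genome build of the array annotation is not given in the sources used here. Coordinates are therefore printed for promoter windows alone and not for the rows of the array. Groups were compared on the deposited values with limma 3.58.1 in R 4.3.3 (lmFit, eBayes without trend, a prior with 3.21 degrees of freedom). The test was two-sided, p-values were adjusted by Benjamini-Hochberg across the whole table and called under 0.05, and there was no filter, covariate or block. The SE is that of the moderated fit. The script was tested on simulated data with known differences. Exact permutation tests ran over all 70 assignments of the pools. Lists were described by counts and medians beside those of all rows.

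The genes of the set, the other lists, the search strings and the tests were chosen with earlier results of these data known. After the data were seen, 3 symbols of the other lists were respelled to the older symbols of the gene table (Twistnb, Cd3eap and Znrd1). Values per pool are given for genes past the threshold, for the 3 genes of each role with the smallest p and for the 4 with the lowest log2 fold change, and those of Npm1 and Mrto4 were added after they were seen. Of the other ribosome biogenesis genes, the 6 with the smallest p and 3 with the lowest log2 fold change at an unadjusted p under 0.05 were to be named, of which only Taf1c had a negative one. Promoters were to be printed for called genes, and for up to 5 others with CACGTG whose groups did not overlap.

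Alternatives were the one-way analysis of variance with false discovery rate named in the study's methods (the methods' test, rerun without the software the study used), a trended and robust prior (statmod 1.5.0), array weights, median centring, quantile normalization applied again, filters at the 25th and 50th percentile of row means, the replicate number as a block, each pool left out in turn, and Ctnnb1OE-EC replicates 3 and 4 left out together. No pool was otherwise left out.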

Additional observations from a re-analysis of the deposited data

Results flagged for a closer look

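In 5 of 104 groups of 4 pools (52 genes in 2 genotypes), 1 pool lay far from the other 3 by Dixon's criterion, which chance meets in about 1 of 20 groups. All were Ctrl groups. Ctrl replicate 3 was far below the other Ctrl pools in Nop56 (7.25, next 7.69), Dkc1 (6.25, next 6.42), Nhp2 (6.14, next 6.73) and Mybbp1a (7.43, next 8.24). Ctrl replicate 2 was far above the others in Polr1a (6.57, next 6.25). Of 14 groups of list means (the set and its 6 roles), that of the box C/D proteins in Ctrl met the criterion, with -0.34 in Ctrl replicate 3 against 0.10 as the next value.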

How the results depend on the processing

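Under 17 alternative settings, the count of called genes among the 52 was 0 by the methods' test as rerun here without the study's software (20 of all rows, which are not the study's own calls), with the replicate block (86 of all rows) and without Ctnnb1OE-EC replicates 3 and 4 (61 of all rows), 2 with filters at the 25th or 50th percentile of row means and with a trended and robust prior (Fbl and Polr1a), and 0 to 1 when each pool was left out in turn, with 0 without Ctrl replicate 1, 2 or 3 or Ctnnb1OE-EC replicate 1 or 3. The count of genes higher at an unadjusted p under 0.05 was 5 without Ctnnb1OE-EC replicates 3 and 4 and 8 to 15 with each pool left out (4.25% to 5.90% of all rows), the lowest without Ctnnb1OE-EC replicate 4. The count of genes whose groups did not overlap with Ctnnb1OE-EC higher was 11 to 17 with each pool left out, the highest without Ctnnb1OE-EC replicate 2, where 5.33% of all rows did so, and it grows because fewer pools have to be separated. On the lower side it was 1 without Ctnnb1OE-EC replicate 1 or 4 or Ctrl replicate 3 and 2 without Ctnnb1OE-EC replicates 3 and 4. The share of all rows on the lower side was not counted in these settings, so these counts are no result about the genes. Single genes were followed over the settings only where the rule for values per pool named them. Among these, the direction turned for Dkc1 without Ctnnb1OE-EC replicates 3 and 4 (-0.02). It also turned for Rrp1b without Ctnnb1OE-EC replicate 3 (0.05) or Ctrl replicate 1 (0.03) or 2 (0.08). Rrp1b ranged from -0.15 to 0.08 when each pool was left out, and the cause was not tested. Of all 52 genes, 47 had a higher mean with all pools and 43 to 48 with each pool left out. Without Ctnnb1OE-EC replicates 3 and 4 there were 40, so genes that were not followed singly turned as well. The median log2 fold change of the 52 genes stayed between 0.12 and 0.24 and that of the other ribosome biogenesis genes between 0.04 and 0.13, and 0 of those other genes were called in any setting. The labels do not say that replicate numbers pair the pools, and the correlation of the deviations of same-numbered pools was 0.253, -0.177, 0.027 and -0.153. With the replicate block, Fbl had an adjusted p of 0.127 and 13 of the 52 genes reached an unadjusted p under 0.05 on the higher side. The 4 pools per group and the signal over background on the array limit how small a difference could be called.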
